A study of Mus musculus with 9 samples.

Results

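Peritoneal macrophages of mice given interferon alpha (IFNa) were compared directly with those of mice given interferon gamma (IFNg), 2 h after injection. The arrays were chosen by treatment label alone: 4 carried 10000 U IFNa and 2 carried 8000 U IFNg, so 6 of the series' 9 arrays were compared. The remaining 3 arrays came from untreated mice and gave the resting level of each gene. All mice were male C57BL/6, 6 weeks old, with no transgene or deletion named. Each recombinant interferon was given under the skin, and the F4/80+ ICAM2+ cells of the peritoneal wash were sorted. The untreated cells are labelled F4/80+ alone. Doses are in activity units of different proteins, and 1 dose of each was used, so every difference below is between these doses of these agents at 1 time. The labels do not say whether an array holds 1 mouse or a pool, so p-values measure the spread between these samples. With 2 IFNg arrays, the precision of every value is limited by their number.

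Type I interferons such as IFNa bind a receptor made of IFNAR1 and IFNAR2, which activates the kinases JAK1 and TYK2 and leads to genes that carry the interferon-stimulated response element (ISRE). IFNg, the type II interferon, binds IFNGR1 and IFNGR2, which signal through JAK1 and JAK2 mainly to genes that carry the gamma-activated sequence (GAS). In macrophages, type I interferon is known for the antiviral state, and IFNg for killing of intracellular microbes and for antigen presentation, with many genes answering to both.

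The values are linear intensities, one probe set per gene, and differences are log2 with the standard error of the fit, where 1 is a doubling. A gene was called where the adjusted p of limma's moderated test over all 19752 genes was under 0.05. The labelled cell type was checked with Adgre1, which encodes F4/80, at 8279, 9125, 8931 and 7782 in the 4 IFNa arrays and at 8334 and 8361 in the 2 IFNg arrays. Icam2 was at 2489, 3547, 3193 and 2728 with IFNa and at 3649 and 3558 with IFNg. IFNa replicate 4 stood apart, with a log2 ratio of upper to lower quartile of 2.16, against 2.70 to 2.99 in the other 5 arrays compared, and a mean correlation with the other arrays of 0.956, against 0.978 to 0.982. Untreated replicate 1 was narrow in the same way, with a log2 ratio of 2.27. The 2 IFNg arrays correlated with each other at 0.996.

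IFNa and IFNg gave different programmes at 2 h, with the antiviral genes Rsad2, Ifit1, Ifit2, Ifit3, Mx1, Mx2 and Oasl1 far higher after IFNa and Cxcl9, Acod1, Irf8 and Icam1 far higher after IFNg. Of the genes tested, 87 were higher with IFNa (0.44%) and 106 were higher with IFNg (0.537%). In all 193 the 4 IFNa arrays and the 2 IFNg arrays did not overlap, a separation that 12.8% of all genes showed with IFNa above and 15.6% with IFNg above. The median size of a called difference was 1.35 (log2) among genes higher with IFNa and 1.30 among those higher with IFNg. At the top of the range the directions were unequal: 10 genes were at least 8-fold higher with IFNa and 1 was at least 8-fold higher with IFNg. At least 4-fold differences numbered 19 and 11, and at least 2-fold differences numbered 68 and 82.

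The number of calls changed when arrays were left out, and the directions did not. Leaving out an array also makes its group smaller, so a lost call does not single out that array. Without IFNg replicate 1, 21 genes were called higher with IFNa and 21 higher with IFNg, and without IFNg replicate 2 the counts were 24 and 32. Leaving out IFNa replicate 1 gave 53 and 68, and leaving out IFNa replicate 3 gave 49 and 63. Without both narrow arrays, IFNa replicate 4 and untreated replicate 1, 250 and 292 genes were called, among them all 87 and all 106. Quantile normalization gave 160 higher with IFNa and 116 higher with IFNg, in place of 87 and 106. None of the 193 changed sign under these settings with an IFNg array left out, without the narrow arrays or after quantile normalization. The ranges of adjusted p given below for single genes cover every alternative, a replicate block included.

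**Figure D1:**
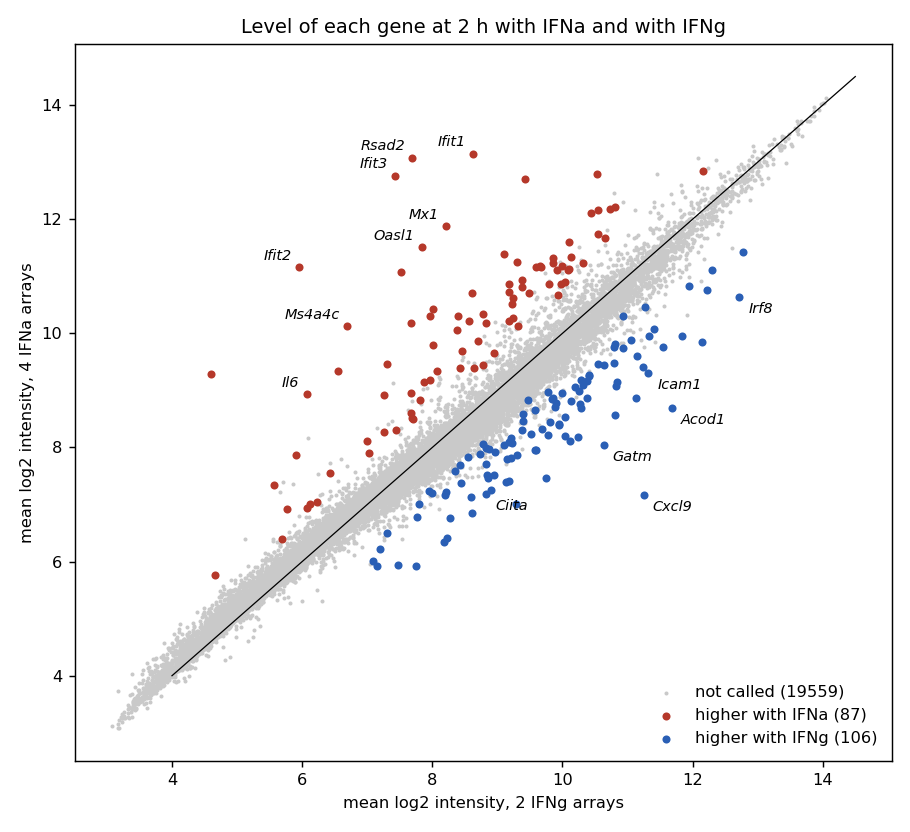
Mean log2 intensity of each of the 19752 genes over the 4 IFNa arrays (vertical axis) and the 2 IFNg arrays (horizontal axis); the line marks equal levels, red points are the 87 genes higher with IFNa and blue points the 106 higher with IFNg. Rsad2, Ifit3, Ifit2 and Ifit3b lie farthest above the line and Cxcl9 farthest below it.

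To set the calls beside the elements that each pathway is known to use, the 250 bases before each start site were searched for the core letters GAAANNGAAA of the ISRE (TTTCNNTTTC on the other strand) and TTCNNNGAA of the GAS, which reads the same on both strands. The sequences are RefSeq's, build GRCm38.p6. The regions shown were chosen after the values were seen: Rsad2 and Ifit3 are among the largest differences toward IFNa, Irf8 and Icam1 are higher with IFNg, and Gbp5 was raised over untreated by both. Capitals mark the matches, and no 2 matches of different motifs overlap in these regions.
Rsad2 (chr12:26456453-26456702, - strand): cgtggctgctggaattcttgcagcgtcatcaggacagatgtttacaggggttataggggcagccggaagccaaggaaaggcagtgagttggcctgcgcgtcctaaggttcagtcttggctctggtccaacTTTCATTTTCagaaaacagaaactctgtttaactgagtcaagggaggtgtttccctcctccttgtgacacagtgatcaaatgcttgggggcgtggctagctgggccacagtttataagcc
Ifit3 (chr19:34583279-34583528, + strand): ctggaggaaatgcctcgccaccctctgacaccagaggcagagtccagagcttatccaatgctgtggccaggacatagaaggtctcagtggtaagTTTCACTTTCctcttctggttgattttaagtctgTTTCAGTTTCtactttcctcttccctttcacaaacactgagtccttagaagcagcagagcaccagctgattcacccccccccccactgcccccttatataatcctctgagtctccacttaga
Irf8 (chr8:120736108-120736357, + strand): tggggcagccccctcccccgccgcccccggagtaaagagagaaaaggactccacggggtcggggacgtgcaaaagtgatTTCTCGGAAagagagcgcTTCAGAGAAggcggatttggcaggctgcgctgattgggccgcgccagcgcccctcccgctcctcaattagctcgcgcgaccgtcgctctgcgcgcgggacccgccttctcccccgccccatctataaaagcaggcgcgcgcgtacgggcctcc
Icam1 (chr9:21015690-21015939, + strand): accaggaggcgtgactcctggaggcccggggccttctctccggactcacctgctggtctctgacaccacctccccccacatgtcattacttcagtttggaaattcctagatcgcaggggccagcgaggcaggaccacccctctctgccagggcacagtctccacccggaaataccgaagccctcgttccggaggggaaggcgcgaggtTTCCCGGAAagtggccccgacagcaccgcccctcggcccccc
Gbp5 (chr3:142496684-142496933, + strand): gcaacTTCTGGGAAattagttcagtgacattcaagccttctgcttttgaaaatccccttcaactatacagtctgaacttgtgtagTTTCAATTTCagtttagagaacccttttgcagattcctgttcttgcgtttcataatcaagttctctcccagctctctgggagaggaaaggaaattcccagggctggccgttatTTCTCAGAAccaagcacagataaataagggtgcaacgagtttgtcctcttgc
Rsad2 held 1 ISRE match, starting 120 bases before the start site. Ifit3 held 2, starting 156 and 122 bases before it. Irf8, which has 2 windows in the table, held 2 GAS matches in the one shown, 171 and 153 bases before the start site, and Icam1 held 1, 42 bases before. Gbp5 held both kinds, an ISRE match at 165 and GAS matches at 245 and 52 bases before. Genes not shown also went otherwise. Ifit2, higher with IFNa, held a GAS match 241 bases before its start site. Calhm6, higher with IFNg, held an ISRE match 64 bases before its own.

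Ifit1 and its divergent neighbour Ifit1bl2 start on opposite strands of chromosome 19 and share the same pair of ISRE matches, which lie 104 and 85 bases before Ifit1 and 70 and 51 bases before Ifit1bl2. Ifi208, Ifi213 and Ifi214, 3 neighbouring PYHIN genes of chromosome 1, each held the same 10 letters, GAAATCGAAA, starting 58, 73 and 79 bases before their start sites. Over the whole group, 16 of the 74 genes higher with IFNa that have a promoter in the table held an ISRE match (21.6%), against 4 of 79 genes higher with IFNg (5.06%) and 524 of all 15435 genes tested with a promoter (3.39%). A GAS match was held by 7 of 74 (9.46%), 8 of 79 (10.1%) and 1191 of 15435 (7.72%). Neither match was held by 52 of 74 (70.3%), 68 of 79 (86.1%) and 13796 of 15435 (89.4%). Over all 32851 promoters of the table the shares were 2.98% for the ISRE and 7.02% for the GAS. A match is a run of letters, not a measured site, and no test was made of these shares.

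The largest differences toward IFNa lay in the IFIT family, whose proteins bind foreign RNA, and in Rsad2 and Cmpk2, neighbouring genes for viperin, an enzyme that makes a chain-terminating nucleotide, and for a nucleotide kinase. All 7 measured members of this list were higher with IFNa, by a median of 4.69 (log2), where 0.44% of all genes were called in that direction. Rsad2 stood at 8265, 8058, 8128 and 10415 in the IFNa arrays, at 207 and 207 in the IFNg arrays and at 107, 217 and 206 untreated. Every IFNa array was thus far above, while the IFNg arrays lay within the untreated range. Rsad2 was 41.8-fold higher with IFNa, a log2 difference of 5.39 ± 0.26 (adjusted p = 1.11e-05).

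Ifit2 read 1959.7, 2142, 2158 and 3003 with IFNa, 69.7 and 54.8 with IFNg and 46.5, 45.1 and 49.9 untreated, a difference of 5.21 ± 0.18 (adjusted p = 2.65e-06). Ifit3 read 5957, 7007, 6679.7 and 8446 with IFNa, 164 and 179.5 with IFNg and 63.1, 81.9 and 110.2 untreated, 40.6-fold higher with IFNa (5.34, adjusted p = 5.12e-06). Ifit1 was at 8738, 8139.5, 8707 and 10989 with IFNa, 463 and 335 with IFNg and 85.1, 139 and 189 untreated (4.53 ± 0.28, adjusted p = 7.60e-05). For Ifit1 and Ifit3 both IFNg arrays were above every untreated array, by 1.59 (adjusted p = 0.0333) and 1.05 (0.071), against 0.29 (0.782) for Rsad2. Ifit3b, a close copy of Ifit3 whose probes may share its RNA, was 4.69 higher with IFNa, and Cmpk2 was 3.27 higher. Ifit1bl2 differed least of the list (1.77 ± 0.22, adjusted p = 0.00531), and lost its call without IFNg replicate 1 (adjusted p = 0.107), in a range of 6.28e-05 to 0.107 over its alternatives.

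The Mx proteins are dynamin-like GTPases that trap viral particles, and the OAS enzymes make the oligoadenylate that switches on RNase L. In this list 5 of 10 measured members were called higher with IFNa, against 0.44% of all genes. None was higher with IFNg at an adjusted or an unadjusted p under 0.05 by limma, and the median difference was 1.14 (log2). After quantile normalization 6 of the 10 were called, and without both narrow arrays 7. Mx1 read 3802, 3613, 4201 and 3555 with IFNa, 333 and 266 with IFNg and 66.0, 117 and 159 untreated, a difference of 3.67 ± 0.29 (adjusted p = 3.12e-04). Mx2 read 2208, 2059.8, 2585 and 1859 with IFNa, 164 and 204 with IFNg and 60.5, 50.2 and 107 untreated (3.56 ± 0.27, adjusted p = 3.01e-04).

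Oasl1, an OAS-like protein without synthetase activity that restrains Irf7 translation, was at 2242, 2939.9, 3143 and 3445 with IFNa, 219 and 240.0 with IFNg and 273, 199.99 and 217 untreated, 3.66 ± 0.19 (adjusted p = 1.84e-05). Its IFNg arrays lay inside the untreated range, and its level over untreated was 3.67 with IFNa and 0.01 with IFNg. Other members of the OAS family differed far less: Oas3 by 1.46 ± 0.23 (adjusted p = 0.0172) and Oas1b by 1.28 ± 0.19 (adjusted p = 0.011), while Oas1a (0.99, adjusted p = 0.0705), Oas2 (0.36, 0.573) and Oasl2 (0.64, 0.539) were not called. In all 10 members the IFNa arrays were above the IFNg arrays, as in 12.8% of all genes. Oas1b lost its call without IFNg replicate 1 or 2 (adjusted p = 0.191 and 0.143), in a range of 2.94e-05 to 0.191 over the alternatives. Oas3 lost its call without any 1 of IFNg replicates 1 and 2 and IFNa replicates 1 and 3 (adjusted p = 0.054 to 0.323), in a range of 3.53e-05 to 0.323.

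**Figure D2:**
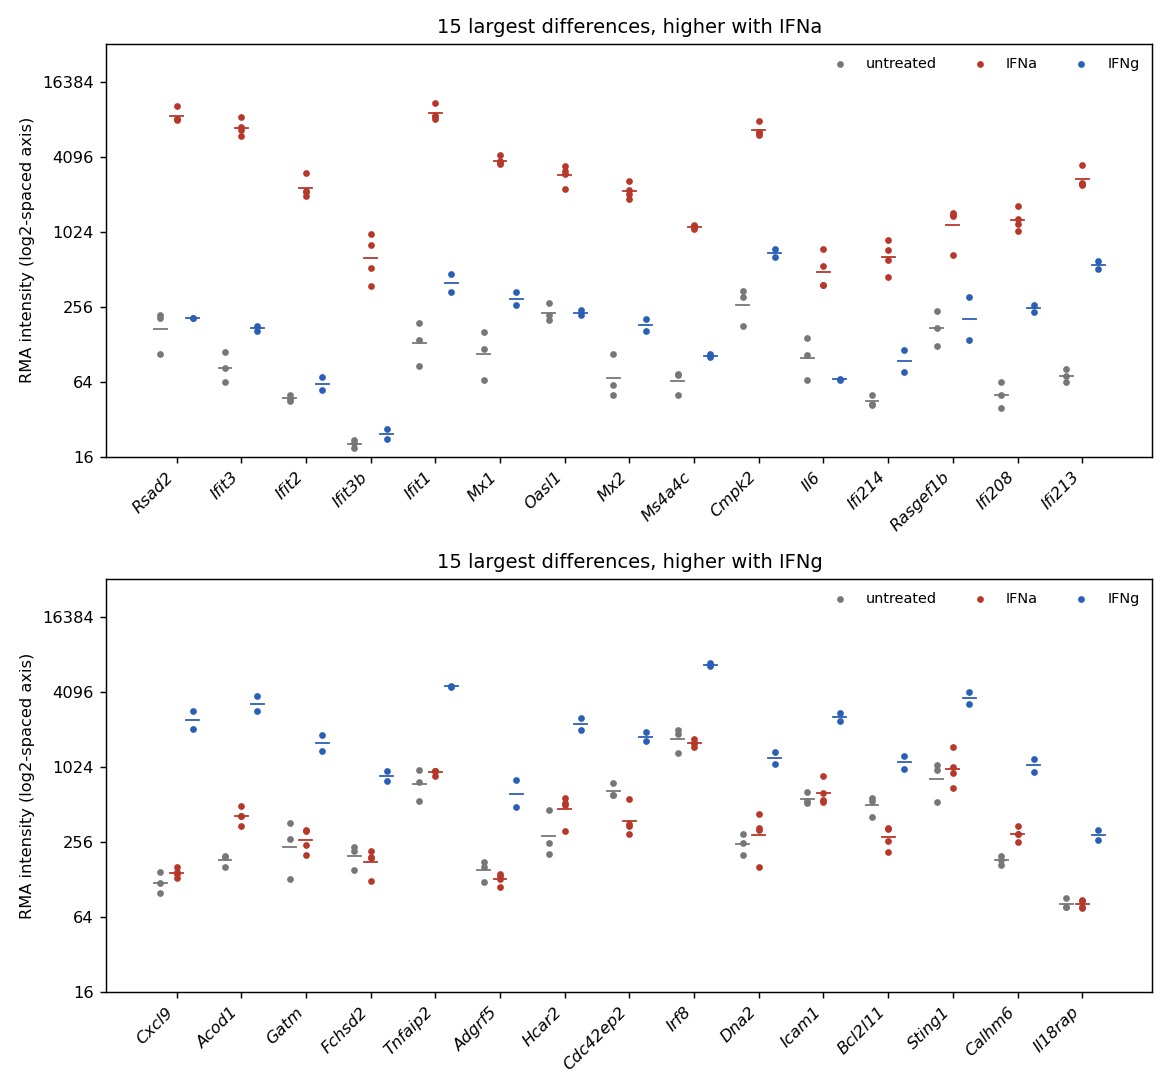
RMA intensity (vertical axis, log2-spaced) of the 15 largest called differences in each direction, one point per array (3 untreated in grey, 4 IFNa in red, 2 IFNg in blue), with bars at the geometric means. In the upper panel the IFNg arrays of Rsad2 and Oasl1 lie within the untreated range while those of Ifi213 lie well above it, and in the lower panel the IFNa arrays of Cxcl9, Irf8 and Il18rap overlap the untreated ones.

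Among DNA sensors and the PYHIN family, whose members bind nucleic acid or regulate interferon genes, 3 of 13 measured members were higher with IFNa and 1 was higher with IFNg. Of all genes, 0.44% and 0.537% were called in these directions. Ifi213 read 3506, 2403, 2457 and 2526 with IFNa, 589.7 and 512 with IFNg and 63.1, 71.3 and 81.6 untreated, so both interferons raised it and IFNa did so by 2.29 ± 0.18 (adjusted p = 3.46e-04) more. Ifi208 was 2.35 higher with IFNa and Ifi214 2.79 higher (adjusted p = 9.05e-04 and 8.27e-04). Of the 13, 5 were called higher with IFNa after quantile normalization and 7 without both narrow arrays. Ifi205 (1.35, adjusted p = 0.0619) and Ifi209 (1.68, 0.0512) also had every IFNa array above every IFNg array, without a call. Sting1, the adaptor that carries the signal of cytosolic DNA, went the other way, at 692, 913, 1026 and 1461 with IFNa and 4050.4 and 3289.7 with IFNg against 535, 973 and 1057 untreated, 1.89 ± 0.33 (adjusted p = 0.0263) higher with IFNg. That call was lost without any 1 of IFNg replicates 1 and 2, IFNa replicates 1, 2 and 3 and untreated replicate 2 (adjusted p = 0.0521 to 0.347), in a range of 1.14e-05 to 0.347 over the alternatives. Cgas, the enzyme upstream of Sting1, differed by 0.75 and was not called (adjusted p = 0.229), and Trex1, a DNA-degrading enzyme, differed by 0.13 toward IFNg (95% interval -0.37 to 0.63).

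Of the 10 RNA sensors measured, Ifih1 (MDA5), Ddx58 (RIG-I) and Tlr3 were called higher with IFNa, against 0.44% of all genes. None was higher with IFNg at an adjusted or an unadjusted p under 0.05 by limma. Ifih1 was at 3145, 2678, 3008 and 3654 with IFNa and 1122 and 1067 with IFNg, against 412, 658 and 690.1 untreated, a difference of 1.50 ± 0.21 (adjusted p = 0.0094). Ddx58 differed by 1.62 ± 0.29 (adjusted p = 0.0325) and Tlr3, the endosomal sensor of double-stranded RNA, by 1.04 ± 0.16 (adjusted p = 0.0172). Tlr8 (1.24, adjusted p = 0.0744) and Dhx58 (1.13, 0.0744) were above without overlap and not called, whereas Zbp1, a sensor of Z-form nucleic acid, overlapped between the groups (0.27, 95% interval -0.22 to 0.76). Of the 10, 5 were called after quantile normalization and 5 without both narrow arrays, and leaving out either IFNg array ended the 3 calls above. Ifih1 lost its call without IFNg replicate 1 or 2 (adjusted p = 0.126 and 0.159), in a range of 7.92e-06 to 0.159. Ddx58 lost its call without any 1 of IFNg replicates 1 and 2, IFNa replicates 1, 2, 3 and 4 and untreated replicate 2 (adjusted p = 0.0593 to 0.472), and after median centring (0.0681), in a range of 3.33e-05 to 0.472. Tlr3 lost its call without any 1 of IFNg replicates 1 and 2 and IFNa replicates 1 and 3 (adjusted p = 0.0522 to 0.338), in a range of 2.70e-04 to 0.338.

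Usp18 removes ISG15 from proteins and also holds back the type I receptor. It read 6706, 6777, 6938 and 8087 with IFNa, 1551 and 1402 with IFNg and 166, 300.0 and 439 untreated, so it was raised by both and was 4.82-fold higher with IFNa (2.27 ± 0.31, adjusted p = 0.00675). Herc6, the mouse ISG15 ligase, was 1.44 ± 0.22 (adjusted p = 0.0131) higher with IFNa. The other 3 measured members of the ISG15 list, Trim25 (0.88), Ube2l6 (0.62) and Uba7 (0.11), were not called. Isg15 had no probe set of its own. Usp18 lost its call without IFNg replicate 1 or 2 (adjusted p = 0.0995 and 0.133), in a range of 8.83e-07 to 0.133, and Herc6 without IFNg replicate 1 or 2 (adjusted p = 0.0558 and 0.255), in a range of 1.43e-04 to 0.255.

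Of 26 other antiviral genes, 10 were higher with IFNa and none was higher with IFNg by limma's adjusted p, with 1, Ifi27, at an unadjusted p under 0.05 toward IFNg. The share of all genes called higher with IFNa was 0.44%. Ddx60, a helicase that works with the RNA sensors, read 1973, 1706, 1883 and 1245 with IFNa, 361 and 418 with IFNg and 171, 179 and 213 untreated (2.11 ± 0.19, adjusted p = 7.81e-04). Znfx1, a helicase that binds viral RNA at mitochondria, was 1.20 ± 0.14 (adjusted p = 0.00421) higher, Phf11c 1.56 ± 0.20 (adjusted p = 0.0054) higher and Tor3a 1.67 ± 0.22 (adjusted p = 0.00633) higher. Other members of the list hardly differed between the interferons: Pml, the scaffold of nuclear bodies, by 0.06 (95% interval -0.21 to 0.33), and Ifitm3, which blocks viral entry, by 0.04 (-0.23 to 0.30). Pml stood at 2943, 3198, 3274 and 3203 with IFNa and 3127 and 2943 with IFNg, against 1281, 1326 and 1503 untreated. Of the 26, 2 were called without IFNg replicate 1, 1 without IFNg replicate 2 and 6 after median centring. Ddx60 kept its call in every alternative, while Znfx1 lost it without IFNg replicate 2 (adjusted p = 0.105), in a range of 6.16e-06 to 0.105. Phf11c lost its call without IFNg replicate 1 or 2 (adjusted p = 0.0505 and 0.13), in a range of 1.08e-05 to 0.13, and Tor3a without IFNg replicate 1 or 2 (adjusted p = 0.0877 and 0.137), in a range of 2.23e-06 to 0.137. Isg20, an exonuclease of single-stranded RNA, was 1.95 ± 0.31 (adjusted p = 0.0173) higher with IFNa and lost its call without any 1 of IFNg replicates 1 and 2 and IFNa replicate 1 (adjusted p = 0.0522 to 0.225), in a range of 3.77e-06 to 0.225. Bst2, the tether that holds budding virions, was 0.71 ± 0.14 (adjusted p = 0.0446) higher and lost its call without any 1 of IFNg replicates 1 and 2, IFNa replicates 1, 2 and 3 and untreated replicate 2 (adjusted p = 0.0882 to 0.601), and after quantile normalization (0.131), with only the 6 compared arrays (0.0653) and with an intensity trend in the variances (0.106), in a range of 3.92e-04 to 0.601. Xaf1, which promotes apoptosis, and Tdrd7, an inhibitor of virus-induced autophagy, were 0.85 ± 0.15 (adjusted p = 0.0307) and 1.05 ± 0.19 (adjusted p = 0.0384) higher, and neither was called without an IFNg array or without IFNa replicate 1, 2 or 3 or untreated replicate 2, with adjusted p up to 0.452 and 0.467, nor with an intensity trend in the variances (0.0628 and 0.0583), in ranges of 1.58e-05 to 0.452 and 2.34e-05 to 0.467.

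The Schlafen genes, interferon-induced regulators of RNA and growth, showed the same order in every member: in all 8 the 4 IFNa arrays were above the 2 IFNg arrays. Of all genes, 12.8% showed that separation. Their differences ran from 0.39 to 1.33 (log2) with a median of 0.79, and none was called by limma. Toward IFNa, 6 had an unadjusted p under 0.05, against 446 of all 19752 genes. Slfn4 came closest (0.99 ± 0.19, adjusted p = 0.0513). Without both narrow arrays 3 of the 8 were called, and after quantile normalization 1. Slfn4 was called in 9 of 20 alternatives, among them those without both narrow arrays (adjusted p = 0.0235) and with only the 6 compared arrays (0.0344), in a range of 7.86e-04 to 0.701. Of 10 TRIM genes, Trim14, an adaptor of antiviral signalling, was higher with IFNa (1.03 ± 0.17, adjusted p = 0.0187), against 0.44% of all genes. It lost that call without any 1 of IFNg replicates 1 and 2 and IFNa replicates 2 and 3 (adjusted p = 0.0662 to 0.312), in a range of 1.80e-05 to 0.312. After quantile normalization 3 of the 10 TRIM genes were called, and without both narrow arrays 5. None of 12 PARP genes, which attach ADP-ribose to proteins, was called, with 3 at an unadjusted p under 0.05, and Parp9 read 2487, 2220.4, 2294 and 2008 with IFNa and 1951 and 1951 with IFNg against 247, 297 and 477 untreated. Of the 12, 2 were called higher with IFNa after quantile normalization and 3 without both narrow arrays.

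A pair of gene clusters stood out among the genes higher with IFNa and were chosen after their values were seen. All 3 measured Phf11 genes of chromosome 14 were called: Phf11a (1.07, adjusted p = 0.0318), Phf11c (1.56, 0.0054) and Phf11d (1.19, 0.0415), as was Setdb2, a histone methyltransferase gene (1.43, 0.0167). Of 18 measured Ms4a genes of chromosome 19, which encode membrane proteins of the CD20 family, 4 were higher with IFNa and none with IFNg. The share of all genes called higher with IFNa was 0.44%. Ms4a4c read 1109, 1075, 1163 and 1142 with IFNa, 107 and 100.4 with IFNg and 72.8, 50.5 and 73.8 untreated, 10.8-fold higher (3.44 ± 0.16, adjusted p = 1.11e-05), and kept its call in every alternative. Ms4a6c read 5253, 4394, 5404 and 4132 with IFNa, 1804 and 1773 with IFNg and 695, 1167 and 1147 untreated (1.41 ± 0.22, adjusted p = 0.0153). Ms4a6b was 1.97 and Ms4a4b 1.10 higher. The smaller calls were lost when single arrays were left out. Ms4a6b was lost without IFNg replicate 1 or 2 (adjusted p = 0.102 and 0.0702), in a range of 4.94e-05 to 0.102. Ms4a6c was lost without any 1 of IFNg replicates 1 and 2 and IFNa replicates 1 and 3 (adjusted p = 0.0522 to 0.218), in a range of 1.45e-05 to 0.218, and Ms4a4b without any 1 of IFNg replicates 1 and 2 and IFNa replicates 1, 2 and 3 (adjusted p = 0.0694 to 0.294), and after quantile normalization (0.152), in a range of 6.01e-06 to 0.294. Phf11a was lost without any 1 of IFNg replicates 1 and 2, IFNa replicates 1, 2, 3 and 4 and untreated replicate 2 (adjusted p = 0.0518 to 0.35), and after median centring (0.0684), in a range of 1.52e-05 to 0.35. Phf11d was lost without any 1 of IFNg replicates 1 and 2, IFNa replicates 1, 2, 3 and 4 and untreated replicate 2 (adjusted p = 0.0686 to 0.54), and after median centring (0.0886) and with an intensity trend in the variances (0.0539), in a range of 4.16e-05 to 0.54, and Setdb2 without any 1 of IFNg replicates 1 and 2 and IFNa replicates 2 and 3 (adjusted p = 0.051 to 0.268), and with only the 6 compared arrays (0.0698), in a range of 7.03e-06 to 0.268. Probes of such related genes can share RNA.

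Il6, the fever and acute-phase cytokine, was called among the cytokines. It read 537, 381, 740.1 and 378 with IFNa, 67.7 and 66.4 with IFNg and 65.4, 104 and 142 untreated, so the IFNa arrays were all above the untreated ones and the IFNg arrays lay at their low end. The difference was 7.29-fold (2.87 ± 0.33, adjusted p = 0.00345). It was the 1 call among 21 cytokine genes, against 0.44% of all genes toward IFNa. Of the 21, 2 were called higher with IFNa without IFNa replicate 4, and 3 after quantile normalization. Without both narrow arrays 5 were called higher with IFNa and 1 higher with IFNg. Il15, which sustains NK cells, read 2005, 1883, 2259 and 1649 with IFNa and 851 and 915 with IFNg, a difference of 1.13 that was not called (adjusted p = 0.0542), and Il10, an inhibitory cytokine, differed by 1.26 (0.305). Il15 was called in 9 of 20 alternatives, among them those without both narrow arrays (adjusted p = 8.80e-04), without IFNa replicate 4 (0.0465), without untreated replicate 1 (0.00607) and after quantile normalization (0.0082), in a range of 4.70e-05 to 0.548. Il6 lost its call without IFNg replicate 1 or 2 (adjusted p = 0.0611 and 0.059), in a range of 1.45e-05 to 0.0611. Rasgef1b, a Ras exchange factor gene, read 1434, 1392, 1368 and 661 with IFNa and 138 and 304 with IFNg, a difference of 2.50 ± 0.40 (adjusted p = 0.0186). IFNa replicate 4 was low, and its call was lost without any 1 of IFNg replicate 1 and IFNa replicates 1, 2 and 3 (adjusted p = 0.0569 to 0.289), and with only the 6 compared arrays (0.0693), in a range of 6.62e-05 to 0.289.

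Toward IFNg, the largest difference was Cxcl9, a chemokine that draws T cells through the receptor CXCR3. Cxcl9 stood at 131, 141, 146 and 161 with IFNa, at 2854 and 2068 with IFNg and at 119, 146 and 98.9 untreated, so the IFNa arrays overlapped the untreated ones and the IFNg arrays were 16.8-fold above IFNa (4.07 ± 0.19, adjusted p = 1.11e-05). The call held in every alternative. Cxcl10, which uses the same receptor, behaved otherwise, at 6827, 6922, 8963 and 11586 with IFNa, 5669.6 and 4847 with IFNg and 221, 206 and 149 untreated. Both interferons raised it, and the difference of 0.67 toward IFNa was not called (adjusted p = 0.474, 95% interval 0.14 to 1.21). Cxcl11, another CXCR3 ligand, read 61.8, 61.6, 61.8 and 72.4 with IFNa and 63.0 and 54.7 with IFNg, inside or near its untreated 78.9, 61.8 and 61.8.

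The CCR2 ligands overlapped between the groups. Ccl2, the main monocyte attractant, read 3481, 2434, 3913 and 3343 with IFNa and 2071 and 3839 with IFNg against 261, 724 and 410.1 untreated, and the 95% interval of its difference, -0.66 to 1.06, spans equality. Ccl7, a related attractant, read 2319.6, 1380.0, 3116 and 3229.7 with IFNa and 1422 and 3972 with IFNg (95% interval -1.09 to 1.10), and Ccl12 differed by 0.17 toward IFNg (-0.49 to 0.82). All 3 were raised over untreated by both, Ccl2 by 2.93 (adjusted p = 0.00101) with IFNa and 2.72 (0.00949) with IFNg. Over the 20 other chemokines none was called by limma and none had an unadjusted p under 0.05, with a median difference of 0.03 (log2), against 0.03 over all genes.

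Acod1, which makes itaconate from an intermediate of the citric acid cycle, was the gene after Cxcl9 in size. It stood at 415, 346, 496 and 409 with IFNa, 2876 and 3764 with IFNg and 196, 159 and 192 untreated. IFNa thus raised it a little and IFNg far more, 7.97-fold above IFNa (2.99 ± 0.18, adjusted p = 5.24e-05), and the call held in every alternative. Gatm, the first enzyme of creatine synthesis, read 318, 243, 309.9 and 201 with IFNa, 1842 and 1367 with IFNg and 128, 269 and 362 untreated (2.59 ± 0.37, adjusted p = 0.0094). Its IFNa arrays lay within the untreated range. That call was lost without IFNg replicate 1 or 2 (adjusted p = 0.172 and 0.0903), in a range of 6.27e-06 to 0.172.

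Of 13 enzymes of itaconate, arginine, tryptophan and pterin metabolism, 3 were called higher with IFNg, Acod1 among them, 1 higher with IFNa and 9 not called. Of all genes, 0.537% and 0.44% were called in these directions. Wars, the tryptophanyl-tRNA synthetase, read 1659.7, 1898, 1711 and 1663 with IFNa and 5298 and 4289 with IFNg against 684, 1219 and 1491 untreated, 1.46 ± 0.26 (adjusted p = 0.0325) higher with IFNg. Ido1, which breaks down tryptophan, was at 92.9, 88.4, 89.6 and 89.6 with IFNa and 173 and 144 with IFNg (0.81 ± 0.15, adjusted p = 0.0323). Gch1, the first enzyme of tetrahydrobiopterin synthesis, went toward IFNa, at 1047, 878, 1066 and 767 against 406 and 426, with 223, 260.0 and 316 untreated (1.16 ± 0.18, adjusted p = 0.0163). Nos2, the inducible nitric oxide synthase, read 120.2, 118, 111 and 144 with IFNa and 111 and 102 with IFNg, and overlapped (95% interval -0.09 to 0.50). The calls of Wars, Ido1 and Gch1 were lost when single arrays were left out. Wars lost its call without any 1 of IFNg replicates 1 and 2, IFNa replicates 1, 2, 3 and 4 and untreated replicate 2 (adjusted p = 0.0593 to 0.453), and after median centring (0.0626), in a range of 3.43e-05 to 0.453. Ido1 lost its call without any 1 of IFNg replicates 1 and 2 and IFNa replicates 1, 2 and 3 (adjusted p = 0.0901 to 0.55), in a range of 2.05e-04 to 0.55, and Gch1 without any 1 of IFNg replicates 1 and 2 and IFNa replicates 1 and 3 (adjusted p = 0.0526 to 0.235), in a range of 1.82e-05 to 0.235.

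Of 15 genes of glucose uptake and glycolysis, 2 were higher with IFNg, against 0.537% of all genes. Slc2a1, the glucose transporter GLUT1, read 572, 551, 605 and 427 with IFNa, 1364 and 997 with IFNg and 592, 681 and 677 untreated (1.13 ± 0.18, adjusted p = 0.0175). Every IFNa array but replicate 3 was below all untreated ones, a difference from untreated of -0.28 that was not called by limma (adjusted p = 0.606). Hk3, a hexokinase, was 0.63 ± 0.12 (adjusted p = 0.0403) higher with IFNg. Pfkfb3, which drives glycolysis through fructose 2,6-bisphosphate, was not called, at 711, 619, 604 and 674 with IFNa and 1227 and 1513 with IFNg (1.07, adjusted p = 0.128). After quantile normalization 1 of the 15 was called, and without either IFNg array none. Slc2a1 lost its call without any 1 of IFNg replicates 1 and 2 and IFNa replicates 1 and 2 (adjusted p = 0.0512 to 0.317), and with only the 6 compared arrays (0.0664), in a range of 2.43e-04 to 0.317. Hk3 lost its call without any 1 of IFNg replicates 1 and 2, IFNa replicates 1, 2 and 3 and untreated replicate 2 (adjusted p = 0.0911 to 0.49), and after quantile normalization (0.382), after median centring (0.0568) and with an intensity trend in the variances (0.114), in a range of 1.81e-04 to 0.49.

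Of 7 interferon regulatory factors, which bind ISRE-like elements, Irf8 was called higher with IFNg, against 0.537% of all genes. None was called higher with IFNa by limma, with 1, Irf7, at an unadjusted p under 0.05. Irf8, a factor of macrophage identity and activation, read 1475, 1591, 1719.8 and 1602 with IFNa, 6916 and 6541 with IFNg and 1310.2, 2019 and 1859.5 untreated. Its IFNa arrays lay within the untreated range, and IFNg was 4.22-fold higher (2.08 ± 0.17, adjusted p = 5.06e-04), with the call held in every alternative. Irf1, an early interferon-induced factor, was raised by both, at 2809, 2823, 2861 and 3073 with IFNa and 6083 and 6398 with IFNg against 358, 659.9 and 716 untreated. The IFNg arrays were above all IFNa arrays by 1.11, which was not called (adjusted p = 0.0871, 95% interval 0.57 to 1.65). Irf7, the amplifier of type I interferon genes, differed the other way, at 4926, 4552, 4584 and 6191 with IFNa and 2008 and 1877 with IFNg against 325, 594 and 885 untreated (1.37, adjusted p = 0.115, interval 0.65 to 2.09). Irf1 was called without both narrow arrays (adjusted p = 5.94e-04), without untreated replicate 1 alone (0.00165), after quantile normalization (0.0121) and with only the 6 compared arrays (0.00615), in a range of 3.29e-05 to 0.701. Irf7 was called in the same 4 settings (0.0051, 0.0112, 0.0273 and 0.0143) and without untreated replicate 3 (0.0418), in a range of 6.43e-05 to 0.835. Array weights also gave both calls. Irf2, Irf3, Irf4 and Irf5 differed by 0.25, -0.24, 0.15 and 0.04, without a call. Batf2, a partner of Irf1 in macrophages, read 747, 747, 819 and 1235 with IFNa and 3335 and 2698 with IFNg (1.79 ± 0.22, adjusted p = 0.00421), a call lost without IFNg replicate 1 (adjusted p = 0.0967), in a range of 1.09e-06 to 0.0967.

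Ciita, the master activator of MHC class II genes, was 149.7, 152, 123 and 161 with IFNa, 478 and 433 with IFNg and 152, 129 and 120.0 untreated. Its IFNa arrays overlapped the untreated ones, and IFNg was 3.13-fold higher (1.64 ± 0.15, adjusted p = 7.81e-04), a call held in every alternative. The class II genes themselves gave no call at 2 h: none of the other 9 members of the list was called, and none had an unadjusted p under 0.05 by limma. H2-Aa read 1130.0, 1259, 939.8 and 1142 with IFNa and 973 and 1452 with IFNg, and Cd74, the invariant chain, 2143, 1866, 1426 and 1526 with IFNa and 1331 and 1866 with IFNg. No call was made among 12 genes of MHC class I and peptide loading (5 at an unadjusted p under 0.05 by limma) or 6 of the immunoproteasome (2). Without both narrow arrays, 1 of the 12 was called higher with IFNa and 1 higher with IFNg. Tap1, a peptide transporter, read 1883, 1815, 2031 and 2256 with IFNa and 2868 and 2725 with IFNg against 523, 625 and 651 untreated. Its IFNg arrays lay above by 0.49, without a call (adjusted p = 0.251, 95% interval 0.17 to 0.81). Several class I heavy chains, H2-K1 and H2-D1 among them, had no probe set of their own.

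Icam1, the adhesion ligand that holds leukocytes through LFA-1, was the 1 call among 13 genes of costimulation and adhesion, against 0.537% of all genes. It read 556, 532, 635 and 866 with IFNa, 2773 and 2364 with IFNg and 542, 643 and 528 untreated, 4.03-fold higher with IFNg (2.01 ± 0.20, adjusted p = 0.00127), and held in every alternative. Cd274, which encodes the checkpoint ligand PD-L1, was raised by both, at 2534, 2011, 2241 and 2814 with IFNa and 4079 and 3799.9 with IFNg against 183, 184 and 341 untreated. The difference toward IFNg was 0.73 and was not called (adjusted p = 0.44, 95% interval 0.16 to 1.29). Cd69, an early activation antigen, differed by 1.14 toward IFNa, without a call (adjusted p = 0.134). Cd40 (0.13), Cd80 (-0.02) and Cd86 (-0.13), the classical costimulators, overlapped between the groups.

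The interferon-inducible GTPases, which attack the vacuoles of intracellular microbes, were raised over untreated by both interferons in most cases and gave 1 call between them. Against untreated, 7 of the 8 guanylate-binding proteins were raised by each interferon, Gbp2b being the exception. Of 8 guanylate-binding proteins, Gbp11 was called higher with IFNg, where 0.537% of all genes were called in that direction. At an unadjusted p under 0.05 by limma, 5 were higher with IFNg and none was higher with IFNa, against 951 and 446 of all 19752 genes. In 7 of the 8 both IFNg arrays were above every IFNa array, as in 15.6% of all genes. Gbp11 read 863, 657, 701 and 550.1 with IFNa, 3027 and 1926 with IFNg and 103, 139 and 91.1 untreated (1.82 ± 0.24, adjusted p = 0.00663). Its call was lost without IFNg replicate 1 (adjusted p = 0.127), in a range of 7.81e-05 to 0.127. All 8 estimates lay toward IFNg, with a median of -0.45 (log2, IFNa minus IFNg) and -0.42 after quantile normalization. Gbp5, which also serves inflammasome assembly, read 2695, 2674, 3022 and 2916 with IFNa, 4326 and 3648 with IFNg and 169, 221 and 266 untreated, so a difference of 0.49 (95% interval 0.09 to 0.89, adjusted p = 0.489) stood beside increases over untreated of 3.72 and 4.21. Gbp4 was 1.07 toward IFNg (adjusted p = 0.256), with the IFNg arrays at 2699.8 and 1163.

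None of the 4 immunity-related GTPases measured was called, and none had an unadjusted p under 0.05 by limma. Iigp1, which coats the vacuole of Toxoplasma, read 2453, 3105, 3513 and 4305 with IFNa and 5186 and 4381 with IFNg against 75.9, 72.7 and 123 untreated, and its 95% interval toward IFNg was -0.04 to 1.13. Irgm1, a regulator of the others, read 3951, 4091, 4724 and 4173 with IFNa and 5175 and 4587 with IFNg against 189, 393 and 452 untreated (-0.45 to 0.86). These intervals are wide, and do not show that the interferons act alike on these genes.

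**Figure D3:**
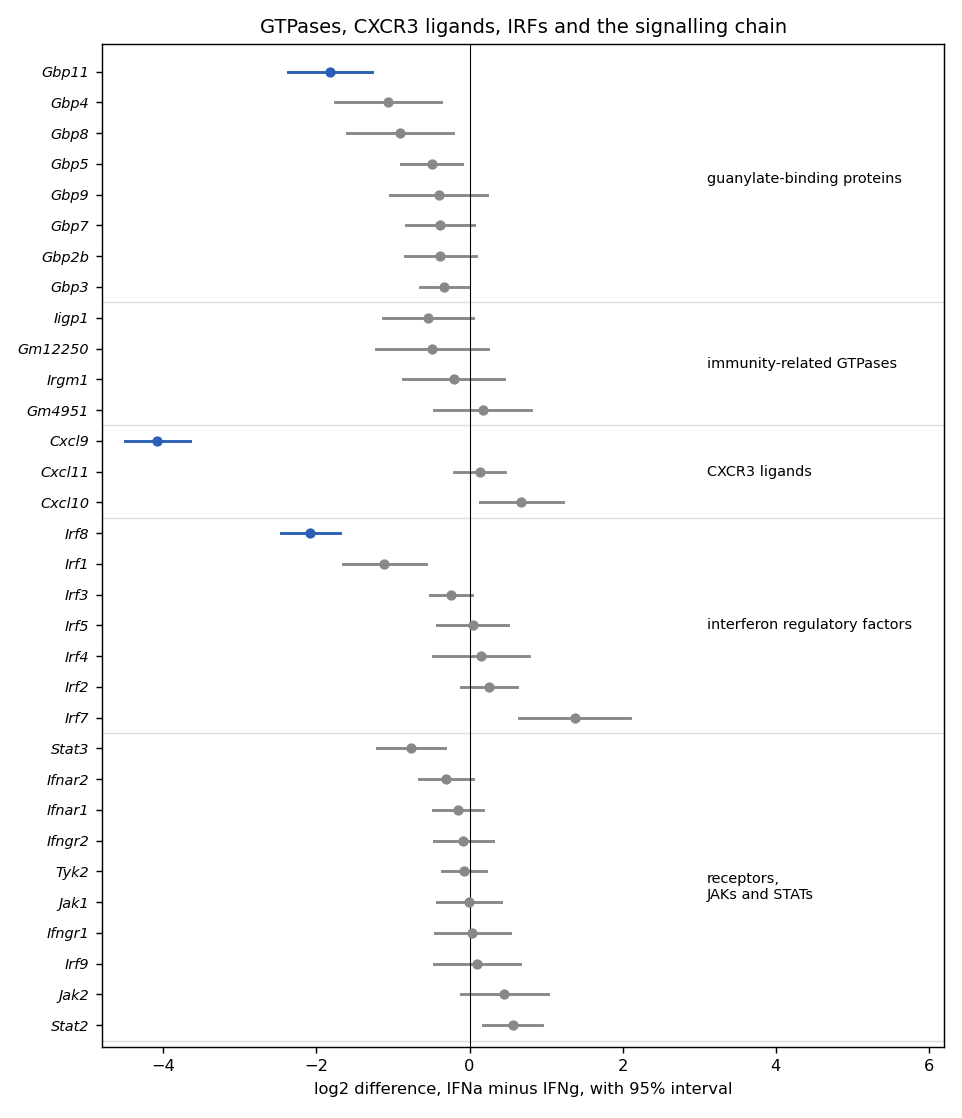
Log2 difference, IFNa minus IFNg, with its 95% interval (horizontal axis) for each measured GTPase, CXCR3 ligand, interferon regulatory factor and member of the receptor, JAK and STAT list; blue marks genes called higher with IFNg and grey those not called. The intervals of the called genes Cxcl9, Irf8 and Gbp11 lie wholly to the left, as do those of some genes not called, Irf1, Gbp5 and Stat3 among them. The intervals of Irf7, Stat2 and Cxcl10, also not called, lie wholly to the right. The other guanylate-binding proteins all have estimates left of 0, and the immunity-related GTPases and the receptors lie near or across 0.

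The receptors, kinases and STATs of both pathways gave no call: none of the 10 measured members of this list was called by limma, and 2, Stat2 toward IFNa and Stat3 toward IFNg, had an unadjusted p under 0.05. Ifnar1 read 1064, 1099, 1145 and 945 with IFNa and 1099 and 1261 with IFNg, and Ifngr1 1825, 1910.1, 1768 and 1138 with IFNa and 1410.3 and 1788 with IFNg. Stat2, a transcription factor of type I interferon signalling, was raised by both, at 3253, 3039.9, 3510.1 and 3269 with IFNa and 2331 and 2083 with IFNg against 307, 403 and 477 untreated, and the IFNa arrays were all above (0.57, 95% interval 0.18 to 0.95, adjusted p = 0.303). Stat3, better known for IL-6 signalling, was at 2506, 1937, 2086 and 2161 with IFNa and 3885 and 3472 with IFNg (0.76 toward IFNg, adjusted p = 0.16). Without both narrow arrays Stat2 and Stat3 were called (adjusted p = 0.0437 and 0.0344, in ranges of 0.00303 to 1 and 3.76e-04 to 0.981), as they were with array weights, and Stat2 also after quantile normalization (0.027).

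Of the 13 brakes on the signal, Usp18, which acts on the type I receptor, was the 1 call, against 0.44% of all genes. Socs1, which blocks JAK kinases, read 654, 768, 867 and 1679 with IFNa, 2707 and 2799 with IFNg and 213, 244 and 236 untreated, 1.57 toward IFNg with an adjusted p of 0.0534. Its IFNa replicate 4 was the highest of its group, and without that array Socs1 was called (adjusted p = 5.46e-04, in a range of 3.50e-06 to 0.484), as it was with the dimmest genes left out or with array weights. Socs3, an inhibitor of IL-6 receptor signalling, read 837, 797, 877 and 1971 with IFNa and 1823 and 2605 with IFNg, where IFNa replicate 4 overlapped the IFNg ones, and it was called without that array (adjusted p = 0.0176 against 0.403, in a range of 2.49e-04 to 1). Socs2 differed by 0.85 toward IFNa, without a call (adjusted p = 0.17). Without IFNa replicate 4 alone, 3 of the 13 were called higher with IFNg, and without either IFNg array none was called. Across the 13 brakes, 8 had an unadjusted p under 0.05 toward IFNg and 2 toward IFNa, against 951 and 446 of all 19752 genes. Without both narrow arrays 6 were called higher with IFNg and 2 higher with IFNa.

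Genes of cell death were called in both directions, 2 each among 20, against 0.44% of all genes toward IFNa and 0.537% toward IFNg. Tnfsf10, the death ligand TRAIL, read 1598, 1678, 1916 and 2397 with IFNa, 706 and 475 with IFNg and 126, 153 and 150.1 untreated (1.69 ± 0.21, adjusted p = 0.00488 toward IFNa). Daxx, a histone chaperone linked to apoptosis, was 1.20 ± 0.22 (adjusted p = 0.0336) higher with IFNa. Bcl2l11, which encodes the pro-apoptotic protein BIM, read 258, 327, 329.7 and 213 with IFNa, 985 and 1246 with IFNg and 404, 569.9 and 548 untreated. Every IFNa array was below every untreated array and every IFNg array above. The differences from untreated were -0.85 with IFNa, not called (adjusted p = 0.0538), and 1.14 with IFNg (0.0492), and the difference between the interferons was 2.00 ± 0.22 (adjusted p = 0.00253). Casp12, an inflammatory caspase, was at 65.4, 58.3, 58.3 and 63.1 with IFNa and 169 and 187 with IFNg against 29.0, 30.6 and 27.9 untreated, 1.54 ± 0.12 (adjusted p = 3.01e-04) toward IFNg, and kept its call in every alternative. Tnfsf10 lost its call without IFNg replicate 2 (adjusted p = 0.0903), in a range of 4.70e-05 to 0.0903, and Bcl2l11 without IFNg replicate 2 (adjusted p = 0.0581), in a range of 5.54e-06 to 0.0581. Daxx lost its call without any 1 of IFNg replicates 1 and 2, IFNa replicates 1, 2 and 3 and untreated replicate 2 (adjusted p = 0.0581 to 0.403), and after median centring (0.0637) and with only the 6 compared arrays (0.0725), in a range of 2.81e-05 to 0.403.

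Other leading genes toward IFNg lay outside the lists above. Tnfaip2, a gene first found as a target of TNF, read 945, 863, 951 and 951 with IFNa, 4464 and 4588 with IFNg and 544, 770.2 and 960.1 untreated (2.29 ± 0.20, adjusted p = 5.95e-04), and kept its call in every alternative. Hcar2, the niacin and ketone body receptor, read 572, 314, 508 and 522 with IFNa and 2011 and 2499 with IFNg (2.26 ± 0.33, adjusted p = 0.0103). Il18rap, the accessory chain of the IL-18 receptor, was at 85.4, 75.2, 76.4 and 87.9 with IFNa, 262 and 318 with IFNg and 76.3, 77.0 and 90.4 untreated, with the IFNa arrays overlapping the untreated ones (1.83 ± 0.14, adjusted p = 3.01e-04). Calhm6 (1.84 ± 0.16, adjusted p = 6.14e-04) and Adgrf5, an adhesion G-protein-coupled receptor (2.28 ± 0.22, adjusted p = 0.00113), also kept their calls in every alternative. Cdc42ep2, an effector of the GTPase CDC42, read 298, 564, 355 and 343 with IFNa and 1939 and 1649 with IFNg against 613, 764 and 608 untreated (2.24 ± 0.24, adjusted p = 0.00193). Fchsd2, an actin regulator of endocytosis, was 2.29 ± 0.24 (adjusted p = 0.00193) and Dna2, a nuclease and helicase of DNA replication, 2.05 ± 0.33 (adjusted p = 0.0187) higher with IFNg. Hcar2 lost its call without IFNg replicate 1 or 2 (adjusted p = 0.102 and 0.193), in a range of 3.43e-05 to 0.193. Cdc42ep2 lost its call without IFNg replicate 1 (adjusted p = 0.0527), in a range of 7.44e-05 to 0.0527, and Fchsd2 without IFNg replicate 1 (adjusted p = 0.0527), in a range of 8.85e-07 to 0.0527. Dna2 lost its call without any 1 of IFNg replicates 1 and 2 and IFNa replicate 1 (adjusted p = 0.0581 to 0.286), and with only the 6 compared arrays (0.0784), in a range of 2.68e-05 to 0.286.

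Cytokine receptor subunits were among the genes higher with IFNg. They were chosen after their values were seen, and no list of such receptors was counted. Csf2rb, the signalling chain shared by the receptors for GM-CSF, IL-3 and IL-5, read 3000.2, 2572, 2722 and 2757 with IFNa, 7614 and 6497 with IFNg and 2332, 2956 and 3138 untreated (1.35 ± 0.15, adjusted p = 0.00281). Its neighbour Csf2rb2, a close copy whose probes may share RNA, read 794, 677, 780.3 and 859 with IFNa and 2479 and 2061 with IFNg (1.54 ± 0.19, adjusted p = 0.00421), while Csf2ra, the GM-CSF-binding chain, overlapped (-0.03, adjusted p = 0.962). Il4ra was 1.17 (adjusted p = 0.0323), Il17ra 1.14 (0.0167) and Ltbr, the lymphotoxin receptor, 0.93 (0.0318) higher with IFNg. Csf2rb lost its call without IFNg replicate 1 (adjusted p = 0.077), in a range of 3.74e-06 to 0.077, and Csf2rb2 without IFNg replicate 1 (adjusted p = 0.0967), in a range of 3.77e-06 to 0.0967. Il4ra lost its call without any 1 of IFNg replicates 1 and 2, IFNa replicates 1, 2 and 3 and untreated replicates 2 and 3 (adjusted p = 0.0596 to 0.467), and after quantile normalization (0.126) and with only the 6 compared arrays (0.11), in a range of 8.80e-06 to 0.467. Il17ra lost its call without any 1 of IFNg replicates 1 and 2 and IFNa replicate 3 (adjusted p = 0.0551 to 0.26), and after quantile normalization (0.118) and with only the 6 compared arrays (0.0609), in a range of 1.33e-05 to 0.26, and Ltbr without any 1 of IFNg replicates 1 and 2, IFNa replicates 1, 2 and 3 and untreated replicate 2 (adjusted p = 0.0524 to 0.491), and after quantile normalization (0.255) and with an intensity trend in the variances (0.0519), in a range of 9.19e-05 to 0.491.

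Regulators of transcription were called in both directions, and those named here were also picked after their values were seen, with no list of them counted. Toward IFNa they included Setdb2, given above, the corepressor gene Spen (0.81, adjusted p = 0.0206), Tsc22d1 (0.83, 0.0119) and Nfxl1 (1.65, 0.0054). Toward IFNg they included the aryl hydrocarbon receptor gene Ahr (1.53, adjusted p = 0.0167), Runx1 (1.08, 0.00672), Ppard (1.15, 0.0103) and the H3K27 demethylase gene Kdm6b (1.34, 0.0093). Ahr senses small aromatic molecules and stood at 383, 296, 336 and 357 with IFNa, 722 and 1345 with IFNg and 221, 207 and 289 untreated. Kdm6b was at 279, 192, 193 and 239.9 with IFNa, 487 and 659.6 with IFNg and 332, 332 and 373 untreated, so its untreated arrays lay between the interferons. None of the 4 toward IFNg was called without IFNg replicate 2. Ahr lost its call without any 1 of IFNg replicate 2 and IFNa replicates 2 and 3 (adjusted p = 0.0526 to 0.207), and with only the 6 compared arrays (0.0581), in a range of 6.13e-04 to 0.207. Runx1 lost its call without IFNg replicate 1 or 2 (adjusted p = 0.0995 and 0.158), in a range of 9.79e-06 to 0.158, Ppard without IFNg replicate 1 or 2 (adjusted p = 0.195 and 0.125), in a range of 1.14e-05 to 0.195, and Kdm6b without IFNg replicate 1 or 2 (adjusted p = 0.0533 and 0.198), in a range of 6.40e-05 to 0.198. Spen lost its call without any 1 of IFNg replicates 1 and 2 and IFNa replicates 1, 2 and 3 (adjusted p = 0.0613 to 0.33), and with an intensity trend in the variances (0.0554), in a range of 7.49e-05 to 0.33. Tsc22d1 lost its call without any 1 of IFNg replicates 1 and 2 and IFNa replicate 3 (adjusted p = 0.0509 to 0.246), in a range of 3.09e-05 to 0.246, and Nfxl1 without IFNg replicate 1 or 2 (adjusted p = 0.0696 and 0.125), in a range of 6.65e-06 to 0.125.

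The level of the lower interferon against rest was also counted in each direction. Among the 87 genes higher with IFNa, the order of the group means was IFNa, IFNg, untreated in 69 and IFNa, untreated, IFNg in 18. Among the 106 higher with IFNg it was IFNg, IFNa, untreated in 42 and IFNg, untreated, IFNa in 64. Median levels over untreated in the IFNa-high genes were 1.82 (log2) with IFNa and 0.43 with IFNg. In the IFNg-high genes they were -0.13 with IFNa and 1.18 with IFNg. Both sets of values share the same 3 untreated arrays, which carry another sort label, and the split was not tested.

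**Figure D4:**
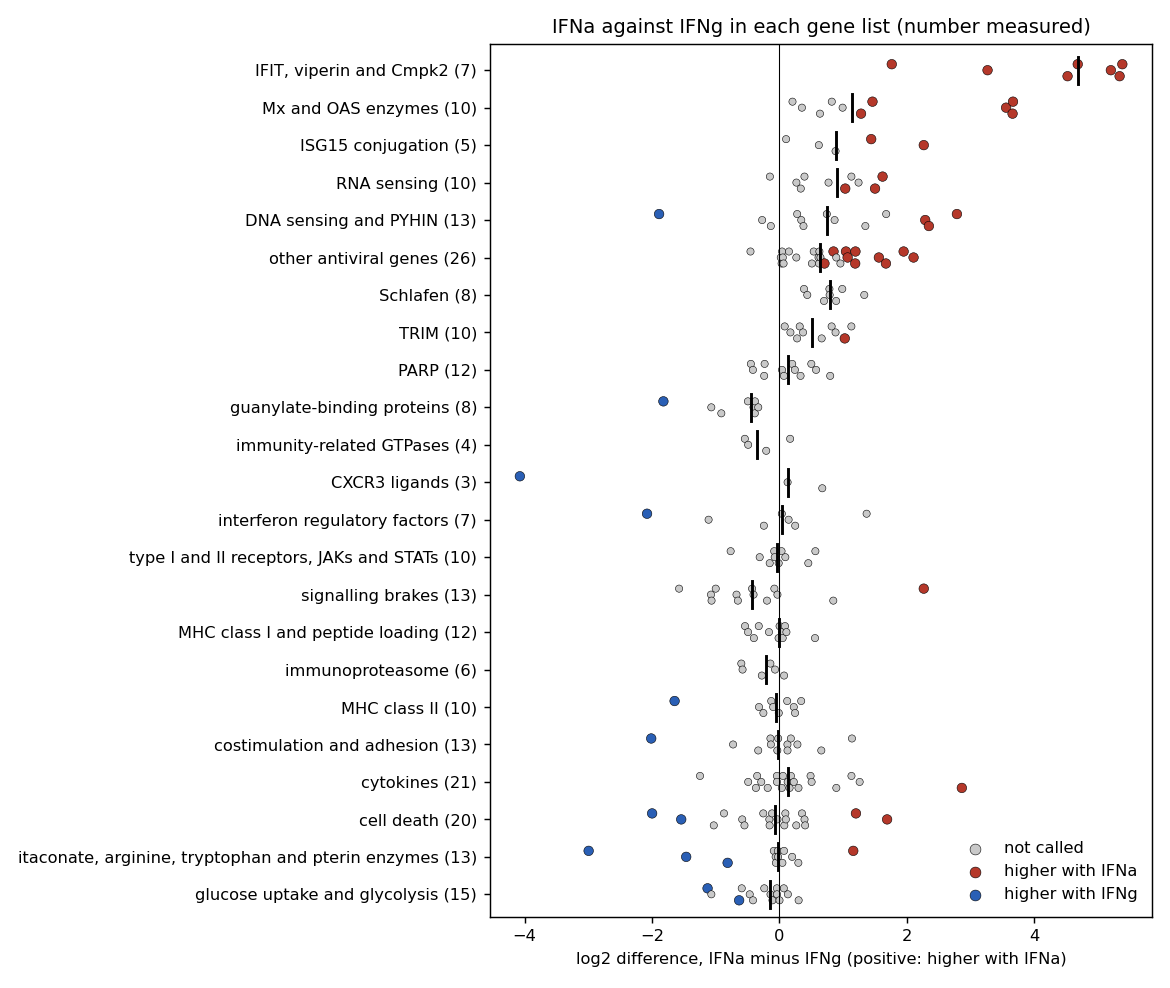
Log2 difference, IFNa minus IFNg (horizontal axis), of every measured member of 23 gene lists (number measured in brackets); red and blue points are called genes, grey points are not called, and black bars are list medians. The IFIT list lies wholly to the right with a median of 4.69, and Schlafen genes lie to the right without a call. Cxcl9, Irf8, Ciita and Icam1 are single blue points far from the rest of their lists. Acod1 lies farthest left of the 3 blue points in its list.

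Genes that mark the cell type, growth or handling gave 1 call. None of 23 markers of large peritoneal macrophages was called by limma, with 2 at an unadjusted p under 0.05. Gata6, which sets the identity of these macrophages, read 2136, 1978, 1687 and 1374 with IFNa and 1879.7 and 1427 with IFNg against 3293, 3778 and 3967 untreated, a difference of 0.11 (95% interval -0.33 to 0.55). None of 23 cell cycle genes was called or had an unadjusted p under 0.05, with IFNa replicate 4 the lowest and IFNa replicate 3 the highest of the 6 arrays for Mki67, at 782, 835, 1651 and 369 with IFNa and 1243 and 781 with IFNg. Of 24 immediate early genes, Egr2 was higher with IFNg (1.77 ± 0.29, adjusted p = 0.0187), against 0.537% of all genes. Egr2 read 170.5, 177, 161 and 169 with IFNa and 364 and 919 with IFNg. Of the 24, 6 had an unadjusted p under 0.05 toward IFNg by limma, against 951 of all 19752 genes. Egr2 lost its call without any 1 of IFNa replicates 1, 2 and 3 (adjusted p = 0.0526 to 0.0633), and with only the 6 compared arrays (0.0905), in a range of 7.43e-04 to 0.125. Heat shock genes (11), glucocorticoid targets (14) and genes of the NF-kB pathway (14) held no call, with 0, 4 and 6 at an unadjusted p under 0.05. Without both narrow arrays 2 glucocorticoid targets and 5 genes of the NF-kB pathway were called.

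Markers of other cell types that a peritoneal wash could hold gave no call and no unadjusted p under 0.05 by limma in any of 7 lists. Yet every member of the B cell, T and NK cell, mast cell, mesothelial and erythroid lists differed toward IFNa. Their medians were 0.38, 0.13, 0.16, 0.18 and 0.09 (log2), against 0.03 over all genes. Without IFNa replicate 4 these medians were 0.33, 0.02, 0.10, 0.08 and -0.02. The small macrophage and the neutrophil lists held differences of both signs. Mast cell and B cell markers were the most uneven among the IFNa arrays. The summed intensity of 9 mast cell markers ran from 1638 to 3363 with IFNa, 1664.5 to 1755 with IFNg and 1378 to 1779 untreated, with a median difference of 0.16 (log2). The summed intensity of 11 B cell markers ran from 2436 to 4455 with IFNa, 2480 to 2593 with IFNg and 2845 to 3213 untreated, and Cd79b read 259, 784, 173 and 259 with IFNa and 228 and 215 with IFNg. The median difference of the B cell markers was 0.38 (log2), with 3 of 11 above in every IFNa array, against 12.8% of all genes. Ms4a1, the B cell antigen CD20 and a neighbour of the Ms4a genes above, read 179, 531, 53.7 and 142 with IFNa and 67.8 and 50.01 with IFNg, so IFNa replicate 2 was high and replicate 3 at the IFNg level, while Ms4a4c was even over the 4 IFNa arrays. Whether the mast cell or B cell markers have a part in any called difference was not tested. In sorted cells on arrays, fewer cells of a type and less RNA per cell cannot be told apart.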

How the data were processed

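Expression was measured on 9 single-channel Affymetrix arrays, 1 per sample: 4 IFNa, 2 IFNg and 3 untreated. The authors deposited 1 table of linear intensity values per probe set, made with Affymetrix Power Tools and RMA per the submitters' processing notes; the version is not given in the sources used here. RMA corrects background, is meant to equalise array distributions and summarises probes. The deposited arrays still differed in spread, with log2 ratios of upper to lower quartile from 2.16 (IFNa replicate 4) to 3.03 (untreated replicate 3). The deposited intensities were turned into log2 values here. Of 24922 probe sets, 21425 carried 1 gene symbol, 1399 several and 2098 none in the platform annotation. The brightest probe set stood for each of 19752 genes.

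limma 3.58.1 in R 4.3.3 fitted the 9 arrays in 3 groups with empirical Bayes variances (6 residual degrees of freedom), and the difference between IFNa and IFNg was tested with Benjamini-Hochberg adjustment over all genes. The untreated arrays entered for the shared spread. The fit was tested on simulated data. A gene was called at an adjusted p under 0.05. Alternatives were variance models, filters on dim genes, quantile normalization, median centring, array weights, the 6 compared arrays alone, a replicate block, every probe set, stricter thresholds and each array left out. Tables were handled in Python 3.11.15 with pandas 2.3.3.

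Genes named were the 15 largest called differences each way without overlap, apart from predicted genes and smell or taste receptors, the 4 genes at most per list whose p was lowest, every member of the IFIT, Mx and OAS, GTPase, CXCR3 ligand, interferon regulatory factor and receptor lists, and a short fixed set. The rule marks 199 genes; those named outside it were chosen after their values were seen. The comparison and the lists were chosen with earlier results of these data known.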

Additional observations from a re-analysis of the deposited data

Results flagged for a closer look

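In 15 of 199 named genes, 1 of the 4 IFNa arrays lay apart from the other 3 by Dixon's criterion, where chance gives about 1 in 20. The array was replicate 4 in 8 genes, replicate 1 in 5 and replicate 2 in 2. Replicate 4 was the highest for Rsad2 at 10415, Socs3 at 1971, S100a9, a neutrophil calprotectin subunit, at 136.9, Cxcl11 at 72.43 and Ms4a2, the mast cell IgE receptor chain, at 36.79. It was the lowest for H2-T24 at 2795, Ifngr1 at 1138 and Rasgef1b at 660.9. Socs3 is the one of these that changes its call without that array, as given above. Replicate 1 was the highest for Ifi213 at 3506 and the lowest for Fcgr4 at 2228, Ube2l6 at 1728, Cebpb at 937.4 and Cxcl14 at 153.6. Replicate 2 was the lowest for Zfp36, an mRNA-decay factor, at 1660 and for Tnfaip2 at 862.5, in the second case against 944.7 to 951.1 in the other 3.

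Probe sets that carry several symbols or none were outside the comparison of genes. Among 3497 of them, 11 were higher with IFNa and 7 higher with IFNg in the same test. They are counted without a gene name.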

How the results depend on the processing

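Against 87 genes higher with IFNa and 106 higher with IFNg, the counts were 614 and 1031 with array weights, 250 and 292 without both narrow arrays, 160 and 116 after quantile normalization and 42 and 48 at an adjusted p under 0.01. Leaving out each array in turn gave 21 to 130 and 21 to 146. Array weights set IFNa replicate 4 at 0.121 and untreated replicate 1 at 0.21. The replicate numbers of the titles and of the descriptions differ, and same-numbered arrays did not deviate together: correlations were -0.13 and 0.08 for the title pairs. A replicate block by the title numbers gave 87 and 132 calls, among them 67 of the 87 and 97 of the 106. A block by the description numbers gave 80 and 56, among them 56 of the 87 and 51 of the 106. Of the called named genes, the title block ended the calls of Ddx58, Herc6, Ido1, Oas3, Tlr3 and Wars (adjusted p = 0.0654 to 0.118). The description block ended those of Ddx58, Egr2, Gatm, Hcar2, Herc6, Hk3, Oas3, Slc2a1, Tlr3 and Wars (0.0512 to 0.332). Of the genes named outside the rule, Ahr, Bst2, Phf11a, Phf11d and Spen lost their calls under the title block and Bst2, Csf2rb, Il17ra, Kdm6b, Ltbr, Ms4a4b, Ms4a6b, Nlrp1b, Nlrp1c-ps, Phf11d, Ppard and Spen under the description block. The other alternatives stayed within 1.5 times. Of 55 called named genes, 24 kept their call in every alternative, 27 lost it without IFNg replicate 1 and 24 without IFNg replicate 2. None of the 55 changed direction. Of 144 not called, 69 were called in some alternative. Only 2 IFNg arrays, which were also close to each other, limit every value; signal over background was not analysed here. The cause of the moves was not tested.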

Other observations

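The Nlrp1 genes, which encode inflammasome sensors that detect protease activity, were chosen after their values were seen. Of 3 measured, 2 were higher with IFNg, against 0.537% of all genes. Nlrp1b read 135, 107, 118 and 86.8 with IFNa, 231 and 204 with IFNg and 132, 115 and 132 untreated, a difference of 0.97 ± 0.18 (adjusted p = 0.0326). Nlrp1c-ps, annotated as a pseudogene, read 289, 252, 288 and 181 with IFNa and 837 and 701 with IFNg against 249.8, 234 and 353 untreated (1.63 ± 0.23, adjusted p = 0.0094). Nlrp1a differed by 0.37 toward IFNg, without a call (adjusted p = 0.638). These genes are close copies, and probes may share RNA. Nlrp1b lost its call without any 1 of IFNg replicates 1 and 2, IFNa replicates 2 and 3 and untreated replicates 2 and 3 (adjusted p = 0.0562 to 0.467), and after quantile normalization (0.0835) and with only the 6 compared arrays (0.0925), in a range of 9.92e-05 to 0.467, and Nlrp1c-ps without IFNg replicate 1 or 2 (adjusted p = 0.183 and 0.1), in a range of 1.32e-05 to 0.183.

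Genes of other macrophage functions gave no call by limma: 5 Fc receptors, with 1 at an unadjusted p under 0.05, 12 complement genes, with 2, and 5 subunits of the NADPH oxidase, with 0. Fcgr1, the high-affinity receptor for IgG, was raised over untreated by both interferons, at 3088, 3408, 3817 and 4192 with IFNa and 2875 and 2485 with IFNg against 387, 497 and 801 untreated, and differed by 0.43 (95% interval -0.14 to 1.00) between them.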
